A study of Mus musculus with 14 samples.

Results

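The comparison set the 9 left ventricle libraries of mice under a regime for heart failure with preserved ejection fraction (HFpEF) against the 5 control libraries, and so took in all 14 libraries of the series. The 9 were every library titled HFpEF-scr (4) or HFpEF-FoxO1-sh (5), chosen by title and not by any measured value. All 14 came from left ventricle of mice whose strain the labels spell C56Bl6. Controls had a standard diet for 10 weeks. Both HFpEF groups had a high-fat diet with L-NAME, an inhibitor of the nitric oxide synthases, for 6 weeks and an adeno-associated virus (AAV) for 4 weeks. In HFpEF-scr the virus carried a scrambled short hairpin RNA, and in HFpEF-FoxO1-sh it carried a hairpin against Foxo1, a transcription factor that insulin signalling keeps out of the nucleus. No virus is named for the controls, so fat, L-NAME, virus and the labelled length of the diet cannot be told apart here. Age, the viral capsid and the promoter of the hairpin are not given in the sources used here, and nothing in the labels says whether each library of a group is another animal. The p-values therefore reflect the spread among libraries, which may be technical.

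The question of the pooled comparison was which messenger RNAs the HFpEF regime moved whichever hairpin the virus carried. As background, heart muscle draws most of its energy from fatty acids, which enter the cell through carriers such as Cd36, are carried by binding proteins, pass into mitochondria as carnitine esters and are broken down there by beta-oxidation. Fatty acids are also ligands of the nuclear receptor PPAR-alpha, whose known targets include enzymes of that pathway. L-NAME blocks the enzymes that make nitric oxide, a gas that relaxes vessels and raises cGMP in muscle. A high-fat diet together with L-NAME is in use as a mouse model of HFpEF, in which the ventricle ejects normally but fills poorly.

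Poly(A) messenger RNA was sequenced, and the deposited expected counts totalled between 13174118 and 21247155 per library, the highest of them Control 1. Levels are CPM (counts for every 1000000 of a library) after TMM scaling, and a gene was called at an adjusted p under 0.05 in edgeR's quasi-likelihood test over the 13588 genes that passed a filter on low counts. Defining markers of cardiomyocytes were abundant in every library, with a summed level of their 10 genes between 93740 and 112300 CPM. Foxo1 itself stood at 44.2, 42.2, 42.4, 47.0 and 44.4 CPM in controls 1 to 5, at 44.8, 48.3, 41.0 and 40.1 CPM in HFpEF-scr 1 to 4 and at 41.5, 46.0, 39.3, 43.8 and 41.4 CPM in HFpEF-FoxO1-sh 1 to 5. The 3 groups overlapped, and the difference between the hairpins was -0.04 log2 (95% confidence interval -0.17 to 0.09, adjusted p = 0.78), so that the level of this messenger RNA does not check the labels of the hairpins. The library HFpEF-scr 1 stood apart in red cell genes, whose summed level was 6159 CPM there and between 563 and 1741 CPM in the other 13.

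Of 13588 genes tested, 1626 were called in the pooled comparison (12.0%), 799 up (5.88%) and 827 down (6.09%). A gene was counted as moving the same way when it was called in the pooled comparison and against control in each HFpEF group, with one sign. Against control, 1001 genes were called in HFpEF-scr (7.37%) and 1760 in HFpEF-FoxO1-sh (13.0%). The same-way rule took 499 genes (3.67%), 259 up (1.91%) and 240 down (1.77%). Both groups were compared with the same 5 controls, so the 2 comparisons are not independent of each other. In 166 of the 259 rises all 9 HFpEF libraries lay above all 5 controls, and in 154 of the 240 falls all 9 lay below. Of all genes tested 3.28% had such separate groups, 1.70% above and 1.58% below. Most changes were small, with a median of 0.32 log2 among the rises and -0.41 among the falls, while the median of all genes was -0.0020. A change of at least 2-fold was seen in 14 of the rises and 28 of the falls.

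The rest of the pooled calls were not shared in this sense. Of the 1626 genes, 683 were called against control in HFpEF-FoxO1-sh alone, 287 in HFpEF-scr alone and 143 in neither, all with one sign, and 14 had opposite signs in the groups. A call in 1 group alone does not show that the groups differ. In the test between the hairpins, 105 of the 1626 were called, and 486 of all 13588 genes (3.58%). Only Plekhg1, picked out after its values were seen, was called in both groups in opposite directions, at 0.34 log2 in HFpEF-scr and -0.36 in HFpEF-FoxO1-sh. The counts leaned on single libraries. Without Control 2 or Control 3 the pooled count was 1063 or 1014 and the same-way count 311 or 308, and without HFpEF-scr 2 or HFpEF-scr 4 the same-way count was 323 or 294. All of the 499 genes kept their sign in every alternative in which they were tested.

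**Figure D1:**
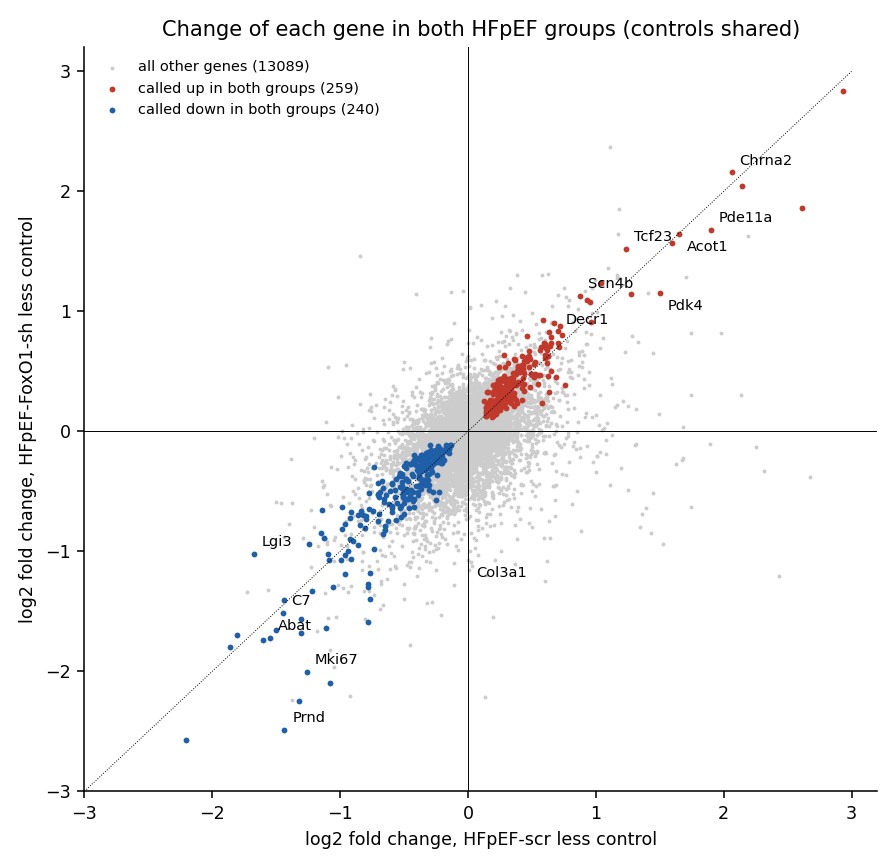
Change of each of the 13588 tested genes in HFpEF-scr (horizontal axis) and in HFpEF-FoxO1-sh (vertical axis), both as log2 fold change against the same 5 controls. Red and blue points are the 259 and 240 genes called up or down in both groups, grey points are all others, the dotted line marks equal change, and 4 genes lie outside the axes. The coloured points lie along the dotted line, which their choice by 1 sign in both groups and the shared controls favour. Col3a1 lies at 0.00 on the horizontal and -1.07 on the vertical axis.

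Mitochondrial beta-oxidation was the gene list with the most shared rises. Of 23 listed genes, all tested, 19 were called up, 1 was called down and 3 did not pass (Cpt1a, Echs1 and Acad11), and 15 of the 19 rose in both groups, with a list median of 0.33 log2. Among the genes that rose were those for entry into mitochondria (Cpt2 by 0.51 and Slc25a20 by 0.52), the dehydrogenases of the first step (Acadvl by 0.42 and Acadm by 0.37), the trifunctional protein and the flavoprotein Etfdh that passes electrons to ubiquinone. The list's score, the mean log2 CPM of its members less the control mean, ran from -0.11 to 0.14 in the controls, from 0.16 to 0.32 in HFpEF-scr and from 0.38 to 0.43 in HFpEF-FoxO1-sh, so that no library of a group overlapped with another group. Of the 10 cardiomyocyte markers 2 were called, both down (Myl2 and Nppa), and 9 had a value below 0. Their score ran from -0.04 to 0.03 in the controls, from -0.27 to -0.08 in HFpEF-scr and from -0.27 to -0.11 in HFpEF-FoxO1-sh, lower in all 9 HFpEF libraries. Nppa weighs as much in this score as any other of the 10 genes, and its part was not tested. The median change of the 10 genes, which a single gene moves little, was -0.10 log2 in the pooled comparison. It was -0.13 in HFpEF-scr and -0.06 in HFpEF-FoxO1-sh. The summed level of the 10 did not separate the groups. It ran from 104800 to 112300 CPM in the controls, from 93740 to 104800 in HFpEF-scr and from 97760 to 108200 in HFpEF-FoxO1-sh. The 18 genes of PPAR, PGC-1 and ERR regulators had a median of 0.04 log2, and of these only Lpin1 was called, downward at -0.25. In a piece of tissue, fewer cells of a type and less RNA per cell cannot be told apart, and this holds for all levels given here.

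Decr1, which encodes the mitochondrial 2,4-dienoyl-CoA reductase needed for polyunsaturated fats, stood at 441, 411, 462, 530 and 471 CPM in controls 1 to 5. In HFpEF-scr 1 to 4 it was 693, 770, 736 and 817 CPM, and in HFpEF-FoxO1-sh 1 to 5 it was 829, 813, 823, 822 and 835 CPM. Every HFpEF library lay above every control, and the rise was 1.70-fold (0.77 ± 0.05 log2, SE, adjusted p = 4.8e-07). The minus strand of chromosome 4 holds Decr1, from 15917240 to 15945507 in GRCm38. Etfdh rose from 727 ± 48.2 CPM (SD, n = 5) to 1015 ± 68.1 CPM (n = 9) and by 0.47 log2 (adjusted p = 4.3e-06). Acadvl, the very long chain acyl-CoA dehydrogenase, went from 1258 ± 75.5 to 1692 ± 103 CPM, and 42.9% of its exon bases are shared with Dvl2 on the other strand, so reads of both cannot be told apart without strand.

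Hadha and Hadhb encode the alpha and beta subunits of the trifunctional protein, which carries out the last 3 steps of long-chain beta-oxidation. Hadhb stood at 1808, 1744, 1917, 2097 and 1978 CPM in controls 1 to 5, at 2364, 2608, 2498 and 2566 CPM in HFpEF-scr 1 to 4 and at 2744, 2784, 2761, 2835 and 2755 CPM in HFpEF-FoxO1-sh 1 to 5. Hadha, picked out after its values were seen, ranged from 1890 to 2432 CPM in the controls and from 2581 to 3248 CPM in the 9 HFpEF libraries. Neither gene's groups overlapped, and the rises were 0.47 ± 0.04 (Hadhb) and 0.53 ± 0.05 log2 (Hadha). The genes stand head to head on chromosome 5, with starts at 30155162 (Hadha, minus strand) and 30155248 (Hadhb, plus strand) in GENCODE vM21. Among 595 head-to-head pairs of tested genes with starts at most 1000 bases apart, both members moved the same way in both groups in 3 pairs, namely this one, Elmod3 with Retsat, and Tmem30a with 4930429F24Rik, all upward. Retsat, which encodes a retinol saturase, rose from 44.6 ± 4.47 to 72.6 ± 3.90 CPM, and Elmod3, a gene of the ELMO domain family, from 16.8 ± 2.51 to 24.6 ± 2.91 CPM. The bases between the starts of the first 2 pairs are shown because both genes on either side of each rose. They are read from RefSeq's GRCm38.p6 sequence on the plus strand, 5′ to 3′, with no letter in capitals since no motif was searched. The first is chr5:30155163-30155247 (85 bases, 69.4% G and C) and the second chr6:72598414-72598474 (61 bases, 44.3% G and C).
Hadha to Hadhb: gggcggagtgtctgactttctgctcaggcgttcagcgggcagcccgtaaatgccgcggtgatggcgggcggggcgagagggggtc
Elmod3 to Retsat: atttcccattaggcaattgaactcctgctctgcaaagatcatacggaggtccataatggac

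Uptake and binding of fatty acids rose in part. Of 18 tested genes 6 were called up and 1 down, with 4 rises in both groups (Cd36, Fabp3, Fabp4 and Lipe), and the list median was 0.08 log2. Fabp3, the fatty acid binding protein of heart muscle, stood at 4633, 4040, 4186, 4832 and 4677 CPM in controls 1 to 5, at 6250, 6261, 6016 and 6134 CPM in HFpEF-scr 1 to 4 and at 7171, 7055, 6830, 6576 and 6731 CPM in HFpEF-FoxO1-sh 1 to 5. The groups did not overlap, and the pooled rise was 1.46-fold (0.54 ± 0.04 log2, adjusted p = 1.4e-06). Cd36, the fatty acid translocase of the cell membrane, went from 1823 ± 95.3 to 2551 ± 114 CPM, again without overlap. Its rise was 0.49 log2 in HFpEF-scr and 0.48 in HFpEF-FoxO1-sh, and the interval of the difference between the groups was -0.11 to 0.09 log2. Dbi, which encodes the acyl-CoA binding protein, rose by 0.65 log2 and Lipe, the hormone-sensitive lipase, by 0.47.

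Genes of the lipid droplet gave 8 rises and 2 falls among 20 tested, 4 of the rises in both groups (Cidea, Plin4, Plin5 and Agpat3), with a median of 0.06 log2 that became 0.16 without Control 1. Cidea, a protein of the droplet surface, stood between 24.6 and 31.7 CPM in the controls and between 44.8 and 50.3 CPM in the HFpEF libraries, a rise of 0.71 ± 0.06 log2. Plin5, a droplet coat protein of oxidative tissue, rose by 0.40 log2 with overlap of single libraries. The defining markers of fat cells were near 0: Adipoq did not exceed 0.371 CPM and Plin1 0.373 CPM in any library, and 8 of the 11 adipocyte markers were too low to be tested.

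Peroxisomes, which shorten very long fatty acids, had 8 rises and 1 fall (Amacr) among 19 tested genes, with 7 rises in both groups and a median of 0.08 log2. Ech1, a dienoyl-CoA isomerase of mitochondria and peroxisomes, rose from 1265 ± 141 to 1977 ± 144 CPM. Pex11a, a factor of peroxisome division, rose by 0.60 log2 and Crat, the carnitine acetyltransferase, by 0.36. Cat, the peroxisomal catalase that breaks down hydrogen peroxide, rose by 0.51 and Ephx2, the soluble epoxide hydrolase, by 0.72.

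Acyl-CoA thioesterases release free fatty acids from coenzyme A. Of 10 tested genes 2 were called, Acot1 and Acot2, both up in both groups. Acot1, the cytosolic enzyme, stood at 14.2, 9.13, 11.2, 17.4 and 10.6 CPM in controls 1 to 5. It was 30.05, 57.8, 32.2 and 38.3 CPM in HFpEF-scr 1 to 4 and 34.7, 39.1, 36.8, 42.6 and 44.1 CPM in HFpEF-FoxO1-sh 1 to 5. That is 3.14-fold higher (1.65 ± 0.16 log2, adjusted p = 1.3e-05), with no overlap. Acot2, the mitochondrial enzyme, rose 2.02-fold, from 121 ± 23.6 to 247 ± 24.0 CPM. The 2 genes are close copies that neighbour each other on chromosome 12 (84009490 to 84018371 and 83987861 to 83993873), so the split of reads between them is uncertain.

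**Figure D2:**
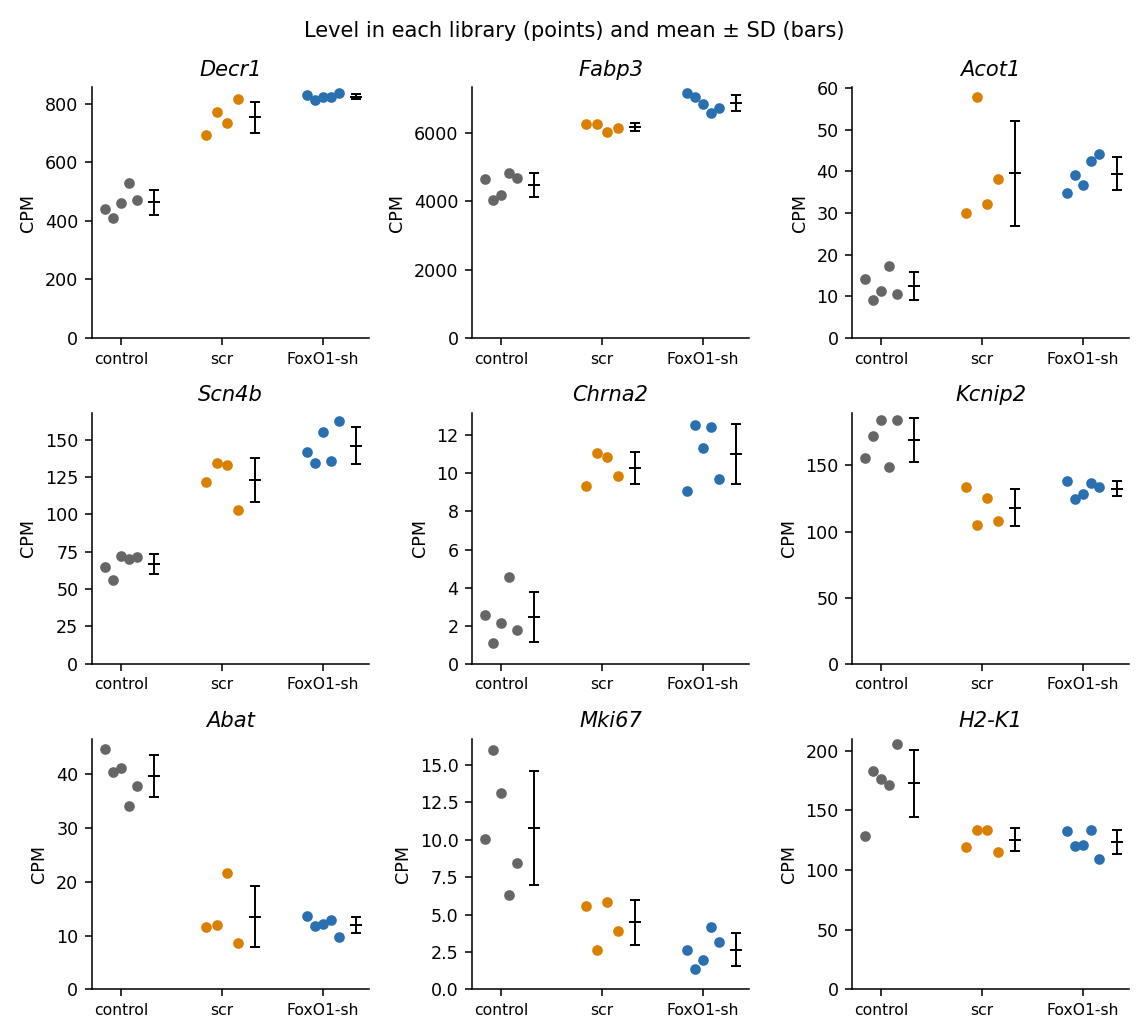
Level of 9 genes in each library in CPM, with axes from 0, as points for control, HFpEF-scr (scr) and HFpEF-FoxO1-sh (FoxO1-sh), and the mean ± SD of each group as bars. In 8 of the 9 panels the HFpEF points lie wholly above or wholly below the control points, and in H2-K1 the lowest control lies at 128 CPM among HFpEF points of 109 to 134 CPM.

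Messages of the pyruvate dehydrogenase kinases moved in both directions. These enzymes turn off the entry of pyruvate into the citric acid cycle. Pdk4, the kinase induced in fasting, stood at 485, 350, 355, 734 and 282 CPM in controls 1 to 5, at 1421, 1598, 890 and 1092 CPM in HFpEF-scr 1 to 4 and at 1017, 727, 886, 917 and 1363 CPM in HFpEF-FoxO1-sh 1 to 5. Its rise was 2.51-fold (1.33 ± 0.21 log2, adjusted p = 0.00090). Control 4 overlapped with the HFpEF libraries, and it was also the highest control for Acot1, Acot2, Decr1 and Chrna2. Pdk1 rose by 0.33 log2 while Pdk2, another of these kinases, fell by 0.18. The list of 14 had 3 rises and 3 falls and a median of -0.05 log2.

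Genes of glucose use fell more often than they rose. Among 25 genes of glycolysis and glucose uptake 8 were called down and 1 up (Pfkl), 5 of the falls in both groups (Slc2a1, Slc2a12, Gapdh, Eno3 and Ldhb), with a median of -0.13 log2. Gapdh went from 4077 ± 157 to 3458 ± 257 CPM and Eno3, the muscle enolase, from 1099 ± 16.2 to 882 ± 76.4 CPM, both without overlap. Slc2a1, a glucose transporter, fell by 0.57 log2 with overlap. Fbp2, the muscle fructose bisphosphatase that runs against glycolysis, rose 2.02-fold, from a range of 20.6 to 41.4 CPM to one of 48.2 to 66.2 CPM.

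Use of ketone bodies and of branched-chain amino acids showed single falls. Bdh1, the hydroxybutyrate dehydrogenase, stood at 148, 155, 132, 75.5 and 142 CPM in controls 1 to 5, at 105, 29.5, 67.9 and 37.1 CPM in HFpEF-scr 1 to 4 and at 80.7, 65.4, 81.3, 55.3 and 68.9 CPM in HFpEF-FoxO1-sh 1 to 5. Control 4 lay among the HFpEF values, and the difference was -1.01 ± 0.23 log2 (adjusted p = 0.0095). Oxct1, the transferase that activates ketone bodies, went from 1592 ± 47.4 to 1305 ± 75.2 CPM without overlap, while Acat1, the thiolase of the same route, rose by 0.38 log2. In the breakdown of branched-chain amino acids 4 of 21 genes were called, all down (Bcat2, Bckdhb, Dbt and Hsd17b10), but only Bckdhb fell in both groups, and the median was -0.03 log2. Fatty acid synthesis had 4 falls and 1 rise among 17 genes, with a median of -0.14. Fasn, the fatty acid synthase, fell from 43.0 ± 2.87 to 31.0 ± 2.62 CPM and Mlxipl, the glucose-sensing factor ChREBP, by 0.31 log2. Me1, the malic enzyme, rose by 0.48.

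The citric acid cycle and the respiratory chain had shares of called genes of 15.8% (cycle), 10.8% (complex I) and 15.4% (complexes III to V), near the 12.0% of all genes. Of 19 citric acid cycle genes 3 were called, all up, and only Sdhc in both groups. Complex I had 2 rises and 2 falls among 37 genes, and complexes III to V had 3 and 3 among 39. The falls in both groups were Ndufa11 (-0.22 log2), Ndufs7 (-0.20), Cox7a1 (-0.25) and Atp5g1 (-0.23). The list medians had opposite signs in the groups, -0.06 log2 in HFpEF-scr and 0.07 in HFpEF-FoxO1-sh for complex I, and -0.05 and 0.07 for complexes III to V. Between the hairpins 6 of 37 and 16 of 39 genes differed, all higher in HFpEF-FoxO1-sh, against 3.58% of all genes in either direction. The complex I score ran from -0.08 to -0.02 in HFpEF-scr and from 0.01 to 0.12 in HFpEF-FoxO1-sh. Ckm, the muscle creatine kinase, fell by 0.29 log2 without overlap.

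**Figure D3:**
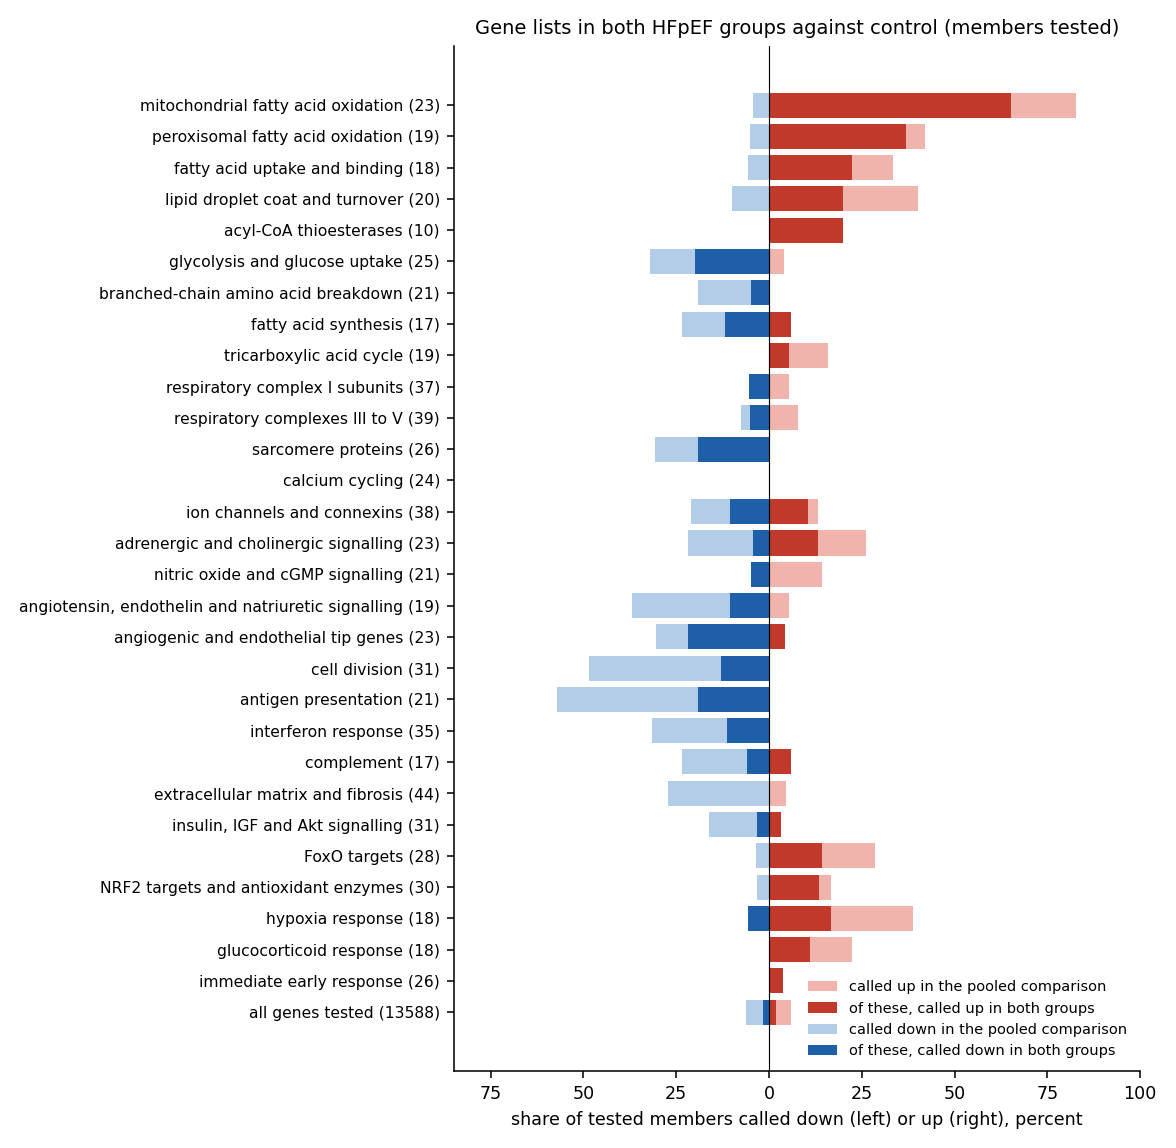
Share of tested members of 29 gene lists, and of all genes tested, called down (left, blue) or up (right, red) in the pooled comparison, in percent, with darker bars for those called in both groups and the number tested in brackets. Mitochondrial fatty acid oxidation has 19 of 23 genes called up, antigen presentation 12 of 21 called down, and all genes 5.88% up and 6.09% down.

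Contractile genes that were called all fell, beside the lower cardiomyocyte marker score given above, whose part in these falls was not tested. The markers include sarcomere genes such as Myh6, Tnnt2, Ttn and Actn2, so the score is no separate gauge of cardiomyocyte content. The summed level of those markers overlapped between the groups. Among 26 sarcomere genes 8 were called down and 18 did not pass, 5 of the falls in both groups (Mybpc3, Myl3, Tnnc1, Myoz2 and Ldb3), with a median of -0.08 log2. Mybpc3, the cardiac myosin-binding protein C, stood at 6152, 6653, 6842, 6081 and 6698 CPM in controls 1 to 5, at 4792, 5194, 5448 and 4639 CPM in HFpEF-scr 1 to 4 and at 4925, 4926, 4981, 4698 and 4422 CPM in HFpEF-FoxO1-sh 1 to 5. The control libraries were all higher, 1.32-fold on the fitted scale (-0.40 ± 0.04 log2, adjusted p = 2.9e-05). Myl3 and Tnnc1, a light chain of ventricular myosin and the calcium-binding troponin, each fell by 0.29 on the log2 scale. None of 24 calcium cycling genes was called by edgeR, DESeq2 or limma voom, and 7 had an unadjusted p under 0.05 in edgeR, 2 up and 5 down. Fhl1, a protein of the stretch response, rose by 0.35 log2 in both groups, without overlap. The list of 18 hypertrophic and stretch response genes had 1 rise and 2 falls in the pooled comparison. Its median was 0.23 log2 in HFpEF-scr and -0.27 in HFpEF-FoxO1-sh. Lower in HFpEF-FoxO1-sh than in HFpEF-scr were 5 of the 18, and 307 of all 13588 genes.

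Genes of electrical excitation moved in both directions. Of 38 ion channel and connexin genes 5 were called up and 8 down, with 4 rises and 4 falls in both groups and a median of -0.04 log2. Scn4b, the beta-4 subunit of the sodium channel, stood at 64.9, 55.9, 71.9, 69.8 and 71.3 CPM in controls 1 to 5, at 121, 134, 133 and 103 CPM in HFpEF-scr 1 to 4 and at 142, 135, 155, 136 and 162 CPM in HFpEF-FoxO1-sh 1 to 5. All 9 HFpEF libraries were above all controls, at a rise of 2.00-fold (1.00 ± 0.08 log2, adjusted p = 1.4e-06). Kcnv2, a silent potassium channel subunit, rose from 15.3 ± 2.42 to 26.9 ± 3.59 CPM. Kcnd3, the pore of the transient outward current, rose by 0.27 and Kcnj5, a subunit of the acetylcholine-gated potassium channel, by 0.32.

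Kcnip2, the partner subunit of the transient outward current, stood at 155, 172, 184, 148 and 185 CPM in controls 1 to 5, at 134, 105, 125 and 108 CPM in HFpEF-scr 1 to 4 and at 138, 125, 128, 137 and 134 CPM in HFpEF-FoxO1-sh 1 to 5. Its fall was -0.44 ± 0.06 log2 (adjusted p = 0.00038), with no overlap. Gja1, which encodes connexin 43 of the gap junctions, fell from 729 ± 29.0 to 557 ± 54.0 CPM. The pacemaker channel Hcn2, chosen after its values were seen, fell by 0.61 on the log2 scale, with overlap.

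Receptors and second messengers held some of the largest rises. Chrna2, an alpha subunit of nicotinic acetylcholine receptors, stood at 2.58, 1.11, 2.15, 4.58 and 1.77 CPM in controls 1 to 5. It was 9.36, 11.1, 10.9 and 9.85 CPM in HFpEF-scr 1 to 4 and 9.10, 12.5, 11.3, 12.5 and 9.73 CPM in HFpEF-FoxO1-sh 1 to 5. The groups were apart in every library, at 4.32-fold (2.11 ± 0.21 log2, adjusted p = 1.2e-05). Pde11a, a phosphodiesterase that breaks down cAMP and cGMP, stood at 1.41, 0.890, 1.24, 1.55 and 2.11 CPM in the controls, at 3.10, 7.90, 5.83 and 4.75 CPM in HFpEF-scr and at 5.98, 3.21, 4.55, 4.22 and 5.20 CPM in HFpEF-FoxO1-sh. It was likewise above the controls in all 9 and rose 3.46-fold (1.79 ± 0.24 log2, adjusted p = 0.00015).

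Grk5, a kinase that silences beta-adrenergic receptors, rose by 0.48 log2, and Adrb1, the main beta-adrenergic receptor of the ventricle, fell from 33.3 ± 2.18 to 25.4 ± 3.47 CPM, neither with overlap. Akap5, a scaffold for protein kinase A, fell from 19.8 ± 2.72 to 9.51 ± 2.30 CPM, and Gnb3, a G protein beta subunit, from 11.9 ± 3.25 to 4.92 ± 1.38 CPM. In the list of 23 adrenergic and cholinergic genes 6 rose and 5 fell, 3 rises and 1 fall in both groups. Its median was -0.03 log2 and turned to 0.02 with the immediate early score as a covariate.

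Nitric oxide signalling, which L-NAME blocks at the enzymes, showed 1 shared change, Nos2, among 21 tested genes, where 3.67% of all genes were shared. Its share of genes called in the pooled comparison was 19%, against 12.0% of all genes. Pde11a, given above, was not on this list. Nos2, the inducible synthase, stood at 17.7, 18.3, 22.8, 20.3 and 19.0 CPM in controls 1 to 5, at 10.8, 14.8, 14.1 and 11.1 CPM in HFpEF-scr 1 to 4 and at 10.3, 10.6, 11.7, 14.7 and 10.9 CPM in HFpEF-FoxO1-sh 1 to 5. All controls were higher, by 1.61-fold (-0.69 ± 0.10 log2, adjusted p = 0.00026). Nos3, the endothelial synthase, named after its values were seen, was at -0.12 log2 (adjusted p = 0.25). Gucy1a3 and Gucy1b3, the subunits of the nitric oxide receptor, and Prkg1, the cGMP-dependent kinase, were called up in the pooled comparison but not in both groups. The calls of Gucy1a3 and Prkg1 were lost without Control 1 (adjusted p = 0.065 and 0.067) and without Control 3 (0.059 and 0.058), that of Gucy1a3 also without Control 2 (0.055) and that of Prkg1 without Control 5 (0.070).

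Apelin and its receptor were the shared falls among peptide signals. Apln, which encodes the vessel peptide apelin, went from 16.7 ± 2.70 to 7.44 ± 3.70 CPM and its receptor gene Aplnr fell by 0.81 on the log2 scale, both in both groups and with overlap. Among 19 genes of angiotensin, endothelin and natriuretic signalling 7 were called down and 1 up (Edn3), and the median was -0.07 log2. The natriuretic peptides of the stressed heart were called down in the pooled comparison, Nppa at -1.05 log2 and Nppb at -1.12. In HFpEF-scr alone neither passed (adjusted p = 0.12 and 0.37), and Nppb differed between the hairpins by -1.34 log2. For Nppa 61.5% of exon bases lie on those of Gm13054 on the other strand.

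Genes of growing vessels fell in part. Of 23 angiogenic genes 7 were called down and 1 up, with 5 falls in both groups (Apln, Aplnr, Angpt1, Nrp2 and Prnd) and a median of -0.09 log2. Prnd, which encodes the prion-like protein doppel, stood at 10.7, 14.7, 11.8, 11.6 and 10.6 CPM in controls 1 to 5. In HFpEF-scr 1 to 4 it was 5.21, 2.77, 6.34 and 3.12 CPM, and in HFpEF-FoxO1-sh 1 to 5 it was 0.863, 3.58, 0.966, 2.89 and 2.33 CPM. The controls were 3.90-fold higher without overlap (-1.96 ± 0.23 log2, adjusted p = 5.8e-05), but 97.2% of its exon bases are shared with the prion gene Prn on the same strand, so the value rests on how reads were divided. Angpt1, a ligand that steadies vessels, fell from 91.1 ± 9.78 to 58.7 ± 10.7 CPM without overlap, while Flt1, a receptor of vascular growth factors, rose by 0.27 log2. Endothelial markers showed 1 call among 12, Fabp4, and their summed level ran from 1813 to 1958 CPM in the controls and from 1814 to 2562 CPM in the HFpEF libraries.

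Genes of cell division were lower. Of 31 tested genes 15 were called down and 16 did not pass, 4 of the falls in both groups (Mki67, Cdk1, Ccna2 and Ccnd2). The list score lay between -0.26 and 0.32 in the controls, between -0.72 and -0.30 in HFpEF-scr and between -0.73 and -0.46 in HFpEF-FoxO1-sh. Mki67, a protein of dividing cells, stood at 10.1, 16.03, 13.1, 6.33 and 8.45 CPM in controls 1 to 5, at 5.56, 2.63, 5.83 and 3.90 CPM in HFpEF-scr 1 to 4 and at 2.66, 1.34, 2.00, 4.15 and 3.199 CPM in HFpEF-FoxO1-sh 1 to 5. The lowest control was just above the highest HFpEF library, and the controls were 3.10-fold higher (-1.63 ± 0.24 log2, adjusted p = 0.00036). Ccnd2, a cyclin of the start of the cycle, fell from 213 ± 26.5 to 153 ± 8.51 CPM. The list's median of -0.49 log2 became -0.28 when at least 10 counts were required in every library, a filter that drops the rarest of these messages.

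Antigen presentation and interferon genes were lower as well. Among 21 antigen presentation genes 12 were called down and 9 did not pass, 4 of the falls in both groups (H2-K1, H2-D1, B2m and Tap1), with a median of -0.36 log2. H2-K1, a class I heavy chain that shares reads with its close relatives, stood at 128, 183, 176, 171 and 205 CPM in controls 1 to 5, at 119, 133, 134 and 115 CPM in HFpEF-scr 1 to 4 and at 133, 120, 121, 133 and 109 CPM in HFpEF-FoxO1-sh 1 to 5. Control 1 lay among the HFpEF values and the other controls above them, and the difference was -0.47 ± 0.08 log2 (adjusted p = 0.0019). B2m, the light chain of class I, fell from 180 ± 16.8 to 140 ± 13.2 CPM without overlap. The list score of Control 1 was -0.51, within the range of the HFpEF libraries, while those of the other controls ran from 0.02 to 0.30.

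Of 35 interferon response genes 11 were called down and 24 did not pass, 4 falls in both groups (Stat2, Bst2, Iigp1 and Tgtp2), with a median of -0.18 log2. Iigp1, a GTPase induced by interferon gamma, fell from 93.2 ± 21.6 to 55.8 ± 6.61 CPM, and Stat2 lost its call without Control 5 (adjusted p = 0.063). Class II genes such as Cd74 and H2-Eb1 were called down in the pooled comparison and in HFpEF-FoxO1-sh, not in HFpEF-scr (adjusted p = 0.085 and 0.066). Markers of macrophages, which carry class II, moved with them: 7 of 16 were called down, among them Csf1r and Cx3cr1, with a median of -0.31 log2. That median was -0.13 in HFpEF-scr and -0.53 in HFpEF-FoxO1-sh. In edgeR 0 of these markers were called in both groups, and 4 were shared falls at an unadjusted p under 0.05. Their summed level ran from 226 to 303 CPM in the controls, from 214 to 277 CPM in HFpEF-scr and from 164 to 207 CPM in HFpEF-FoxO1-sh, and their part in the falls was not tested. Of 12 lymphocyte markers 3 could be tested, and the summed level of the other 9 did not exceed 3.12 CPM in any library.

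Complement had 4 falls and 1 rise (Masp1, by 0.47 log2) among 17 genes. C7, a component of the membrane attack complex, stood at 11.7, 20.8, 8.74, 8.89 and 13.2 CPM in controls 1 to 5, at 5.77, 3.19, 5.89 and 3.61 CPM in HFpEF-scr 1 to 4 and at 3.32, 3.06, 7.52, 4.86 and 3.33 CPM in HFpEF-FoxO1-sh 1 to 5. It was lower in all 9 HFpEF libraries, at -1.48 ± 0.23 log2 (adjusted p = 0.00079). The other falls, C1qa, C1qb and C1qc, are macrophage genes too. Among 22 cytokine genes edgeR called only Osmr, the oncostatin M receptor, upward at 0.41 log2, while DESeq2 and limma voom each called 1 up and 1 down. The list median was 0.37 log2 in HFpEF-scr and -0.33 in HFpEF-FoxO1-sh. Lower in HFpEF-FoxO1-sh than in HFpEF-scr were 7 of the 22 genes, and 307 of all 13588.

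**Figure D4:**
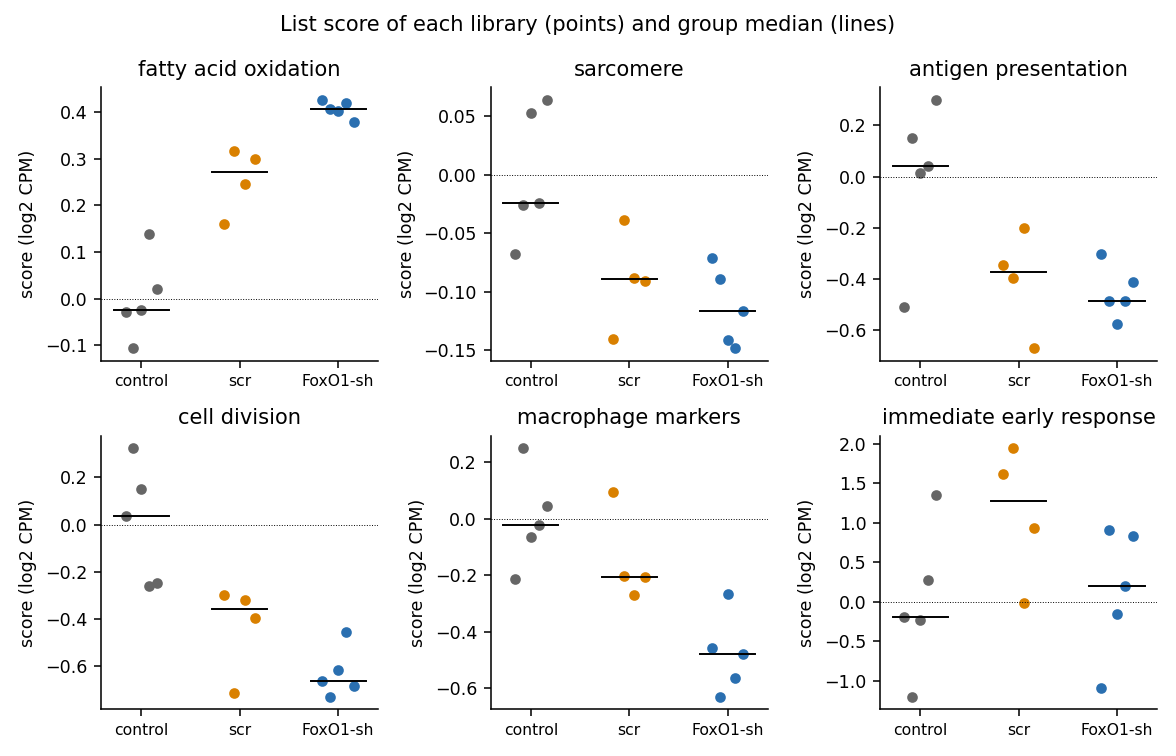
Score of 6 gene lists in each library, the mean log2 CPM of the tested members less the control mean, as points for control, HFpEF-scr (scr) and HFpEF-FoxO1-sh (FoxO1-sh), with lines at the group medians. Fatty acid oxidation and cell division separate the controls from the 9 HFpEF libraries, 1 control lies at -0.51 in antigen presentation, and the immediate early score spreads from -1.20 to 1.35 in the controls alone.

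Several further rises and falls stood apart from these lists. Abat, the GABA transaminase gene, stood at 44.7, 40.4, 41.2, 34.0 and 37.8 CPM in controls 1 to 5, at 11.6, 12.1, 21.6 and 8.57 CPM in HFpEF-scr 1 to 4 and at 13.6, 11.9, 12.1, 12.8 and 9.66 CPM in HFpEF-FoxO1-sh 1 to 5. No library of either HFpEF group reached the lowest control, and the controls were 3.11-fold higher (-1.64 ± 0.14 log2, adjusted p = 3.8e-06). Abat lies on chromosome 16 at 8513429 to 8621568 and shares no exon base with another gene. Lrrc4b, a leucine-rich membrane protein of synapses, fell from 34.1 ± 4.05 to 12.5 ± 2.99 CPM, and Slc41a3, of a family of magnesium transporters, from 74.0 ± 8.59 to 36.2 ± 9.41 CPM.

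Lgi3, a secreted leucine-rich protein, was between 3.82 and 4.01 CPM in every control and between 0.850 and 2.54 CPM in the HFpEF libraries. Bmp7, a growth factor of the BMP family, fell from 3.54 ± 0.52 to 1.67 ± 0.249 CPM. Scgb1c1, a secretoglobin, and Armcx4 fell by 1.49 and 1.04 on the log2 scale. On the side of the rises, Lgals4, which encodes galectin-4, went from a range of 53.7 to 99.0 CPM to one of 108 to 177 CPM. Tcf23, a helix-loop-helix factor, rose from 1.65 ± 0.476 to 4.46 ± 1.27 CPM and Slc26a10, of an anion transporter family, from 28.2 ± 4.52 to 49.0 ± 8.76 CPM. The naming rule took the largest changes only where the groups did not overlap.

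Insulin signalling gave few shared changes. Of 31 genes 5 were called down and 1 up, and Akt1 fell in both groups (-0.49 log2), with a list median of 0.01. Igf1 was at -0.71 in the pooled comparison, with an adjusted p of 0.054 in HFpEF-scr. Of 28 known FoxO targets 8 were called up and 1 down (Insr), 4 rises in both groups (Pdk4, Cat, Mxi1 and Bnip3l), with a median of 0.12 log2. The 30 genes of NRF2 targets and antioxidant enzymes had 5 rises and 1 fall (Gpx1), 4 rises in both groups, namely Cat, Sod1, Ucp2 and Gstm1. Hypoxia genes had 7 rises and 1 fall among 18, with Pdk1, Kdm3a and Mxi1 up and Slc2a1 down in both groups. Of 22 heat shock genes 3 rose, Hspd1 and Dnajb4 in both groups, and the 23 genes of the unfolded protein response had 3 rises and 2 falls. None of the latter was called in both groups by edgeR, DESeq2 or limma voom, while 2 rises and 1 fall were shared at an unadjusted p under 0.05 in edgeR. The core clock had 1 rise and 2 falls among 17 genes and its output factors 2 rises among 10.

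Stress-responsive genes varied widely among the libraries of a group. All 26 immediate early genes, which respond within minutes to stress, had a pooled value above 0, but only Ier3 was called, at 0.62 log2. The list median was 0.74 log2 in HFpEF-scr and 0.0034 in HFpEF-FoxO1-sh, which averaged to 0.42 in the pooled comparison. Beside 307 of all 13588 genes, 4 of these 26 were lower in HFpEF-FoxO1-sh than in HFpEF-scr. Their score ran from -1.20 to 1.35 in the controls, from -0.02 to 1.94 in HFpEF-scr and from -1.09 to 0.90 in HFpEF-FoxO1-sh. Glucocorticoid response genes had 4 rises among 18, including Pdk4 and Tsc22d3, a median of 0.38 log2 and a score of -0.24 to 0.32 in the controls and 0.0002 to 0.91 in the HFpEF libraries. Tsc22d3 lost its call without Control 2 or 3 (adjusted p = 0.052 and 0.053). With the immediate early score as a covariate, a setting added after the data were seen, 498 of the 499 shared genes were still called in the pooled comparison and 240 of them in both groups. Beyond this the part of these responses in single rises was not tested.

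Where the hairpins differed, the pooled value stands for neither group. Of the 499 shared genes 16 also differed between the groups (3.58% of all genes did). Osmr and Grk5 rose more in HFpEF-scr, with differences of -0.34 and -0.30 log2, and Sod1, the cytosolic superoxide dismutase, and Sdhc, a subunit of complex II, rose more in HFpEF-FoxO1-sh, by 0.18 and 0.17. Eno3, Ldhb and Bckdhb fell less in HFpEF-FoxO1-sh, by 0.19, 0.18 and 0.23, and Nrp2, a co-receptor of vessel growth, fell further, by 0.33. The other 8 were Ccbl2, Creg1, Ctage5, Etfa, Mreg, Mylk4, Nampt and Stab1.

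Collagens were the opposite case. Of 44 matrix genes 12 were called down and 2 up in the pooled comparison. Lower in HFpEF-FoxO1-sh than in HFpEF-scr were 22 of the 44, and 307 of all 13588 genes. The same-way rule took 0 of the 44 in edgeR, DESeq2 and limma voom alike. At an unadjusted p under 0.05 in each comparison edgeR gave 2, both up. Col3a1, a fibrillar collagen of fibroblasts, stood at 252, 293, 251, 230 and 246 CPM in controls 1 to 5, at 253, 271, 298 and 196 CPM in HFpEF-scr 1 to 4 and at 98.3, 103, 130, 141 and 134 CPM in HFpEF-FoxO1-sh 1 to 5. The change was 0.00 log2 in HFpEF-scr and -1.07 in HFpEF-FoxO1-sh, which averaged to a pooled call at -0.53. In a fit with a single HFpEF group the calls of Col3a1, Col6a3 and Nppb were lost (adjusted p = 0.20, 0.32 and 0.071). Fibroblast markers had 3 rises and 2 falls among 14, and TGF-beta and BMP genes 5 rises and 1 fall among 22. In edgeR none of either list was called in both groups, and DESeq2 gave 1 shared rise among the fibroblast markers. At an unadjusted p under 0.05 edgeR gave 3 shared rises in each list. Bmp7, a growth factor given above that fell in both groups (-0.96 log2 in HFpEF-scr and -1.19 in HFpEF-FoxO1-sh), was not on the TGF-beta and BMP list.

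**Figure D5:**
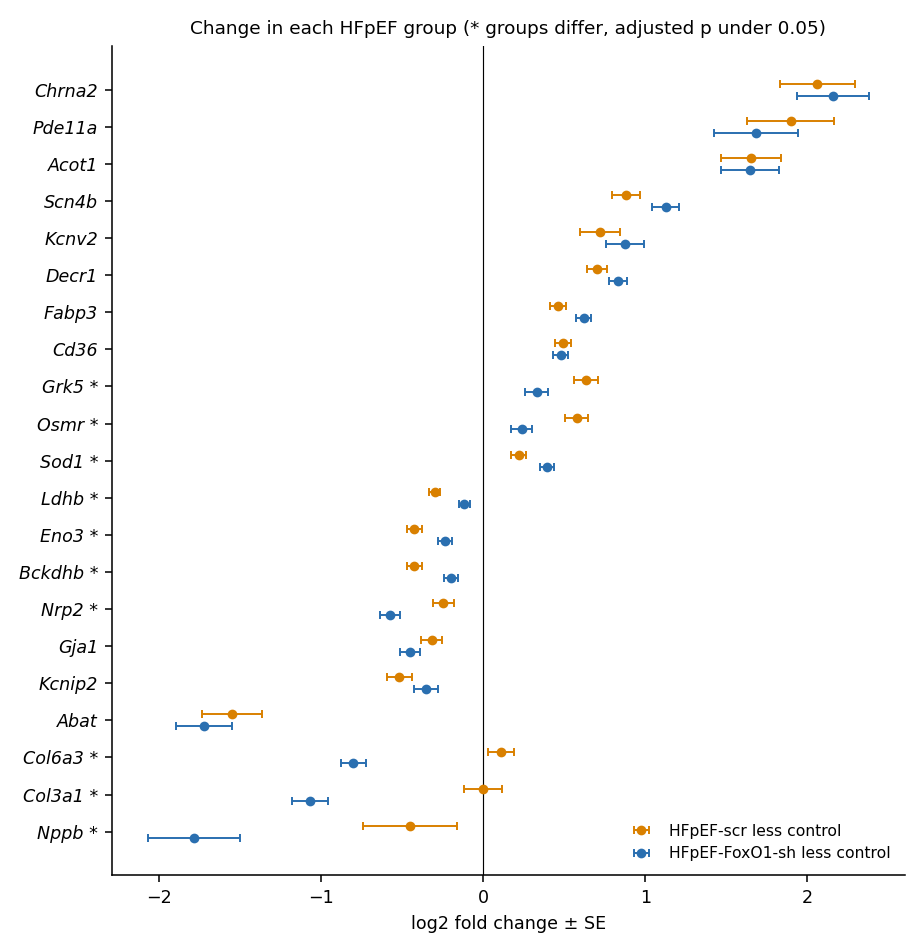
Change of 21 genes against control in HFpEF-scr (orange) and in HFpEF-FoxO1-sh (blue), as log2 fold change with bars of 1 SE, where an asterisk marks genes whose groups differ from each other at an adjusted p under 0.05. Chrna2, Acot1, Cd36 and Abat lie close together in both groups, whereas Col3a1 is at 0.00 in one and -1.07 in the other.

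Markers of other cell types gave these values. Pericyte and smooth muscle markers had 3 rises among 12 (Rgs5, Acta2 and Mustn1) and a median of 0.22 log2. Among 7 atrial markers Nppa was called, and among 4 of skeletal muscle Ckm. None of the 10 red cell genes, 10 genes of endocardium and epicardium, 4 neutrophil and 3 lymphocyte genes tested was called by edgeR, DESeq2 or limma voom, and 0 of them had an unadjusted p under 0.05 in edgeR. A p above the threshold does not show that these cells were equally frequent in the groups.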

How the data were processed

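Poly(A) RNA of 14 left ventricle libraries was selected and made into libraries with a Swift kit, per the labels' protocols. The deposited table holds expected counts per gene that the authors estimated. Bowtie2 2.1.0 and RSEM 1.2.15 are listed without roles, per the submitters' processing notes, as is the build mm10, and strand use is not given in the sources used here. Columns were matched to libraries by the library number in the labels. Between 15.1% and 16.4% of all values per library, zeros included, were not whole, and all were rounded. Of 24054 genes, 27 had names turned into dates and were not named.

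Counts were filtered with filterByExpr, scaled by TMM and fitted with edgeR 4.0.16 (R 4.3.3), with 1 coefficient for each of 3 groups. The pooled contrast was the mean of both HFpEF coefficients less control, and adjusted p is Benjamini-Hochberg over 13588 genes. SE is the log2 fold change over the square root of its F. Log2 CPM for scores used a prior count of 2. Each unadjusted p under 0.05 comes from the same fit. The steps were tested on simulated data.

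Genes were named by a rule: the 12 largest rises and falls shared by both groups, at a mean of at least 2 CPM and without overlap; up to 4 called members of each list by p; 8 shared genes of smallest p at a mean of at least 100 CPM; 8 called in the pooled comparison and between hairpins; and Foxo1. Hadha, Retsat, Elmod3, Nos3 and the remaining names were chosen after their values were seen. The rule, 40 process lists and 13 marker lists were chosen with earlier results of these data known. Of 1046 listed symbols 8 were not found. Some genes that the rule took, and some counts that rest on them, are not reported here. Positions and shared exons are from GENCODE vM21 (GRCm38). A comparison of promoters was void for want of complete windows. RefSeq's table held them for 74.5% of the rises, 79.6% of the falls and 79.0% of all genes tested.

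Alternatives were a 2-group fit, the replicate number as a block, DESeq2 1.42.0 or its size factors, limma 3.58.1 voom, 2 other filters, a test against a fold of 1.2, each library left out in turn and, added after seeing the data, the immediate early score as a covariate.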

Additional observations from a re-analysis of the deposited data

Results flagged for a closer look

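Among 384 groups of 4 or 5 values (128 named genes in 3 groups), 16 held 1 library far from the others by Dixon's criterion, or 4.17%, where chance gives about 1 in 20. Control 1 accounted for 4 of them. Akap5 was 15.0 CPM in Control 1 against 20.4 to 21.6 CPM in the other controls, Bnip3l 58.4 against 63.7 to 65.3, Atp5g1 729 against 680 to 693 and Bckdhb 66.3 against 59.4 to 61.3. Control 4 accounted for 3. There Acot2 was 162 CPM against 99.4 to 117, Lgals4 99.0 against 53.7 to 61.4 and Bdh1 75.5 against 132 to 155, each on the side of the HFpEF libraries.

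In HFpEF-scr 1, Fabp4 was 635 CPM against 535 to 545 in the other libraries of its group, and Slc25a20 was 247 against 276 to 281. In HFpEF-scr 4, Tcf23 was 6.66 CPM against 2.84 to 3.39 and H2-D1 147 against 168 to 170. Ccnd2 was 172 CPM in HFpEF-scr 3 against 144 to 148. In HFpEF-FoxO1-sh 5, Atp5g1 was 538 CPM against 619 to 633 and Hsd17b10 95.4 against 103 to 105. Kcnj5 was 148 CPM in HFpEF-FoxO1-sh 2 against 137 to 139, and Bst2 was 13.5 CPM in HFpEF-FoxO1-sh 4 against 9.00 to 10.2.

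For 12 named genes the change against control differed between the HFpEF groups in edgeR's test of that difference (HFpEF-FoxO1-sh less HFpEF-scr). The naming rule took some genes for this difference, so the count of 12 does not show how common it is. The log2 difference was -1.34 for Nppb, -1.07 for Col3a1, -0.91 for Col6a3, -0.34 for Osmr, -0.33 for Nrp2 and -0.30 for Grk5. It was 0.17 for Hsd17b10, 0.17 for Sdhc, 0.18 for Ldhb, 0.18 for Sod1, 0.19 for Eno3 and 0.23 for Bckdhb.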

How the results depend on the processing

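The pooled count of 1626 stayed within 1.5 times, between 1242 and 1821, under the 2-group fit, the block, DESeq2, its size factors, voom, both filters and the immediate early covariate. A test against a fold of 1.2 left 111 pooled calls (44 up, 67 down), 43 shared by both groups (22 up, 21 down) and 16 between hairpins, since it asks for a larger change. With the immediate early covariate 255 genes were shared (120 up, 135 down) and 260 differed between hairpins, and DESeq2 gave 857 for the latter; the cause was not tested. Leaving out each library in turn gave 1014 to 1930 pooled calls (493 to 947 up, 521 to 983 down), 294 to 616 shared (149 to 330 up, 145 to 286 down) and 162 to 668 between hairpins. Without Control 5 there were 150 shared falls. The hairpin count of 486 fell to 245, 314 or 279 without HFpEF-scr 1, 2 or 3, and to 162, 253, 241 or 198 without HFpEF-FoxO1-sh 1, 2, 3 or 4. Among 2937 values of named genes under alternatives, 2845 kept direction and side of the threshold, 89 lost the call, 3 gained one (Cpt1a) and 0 reversed.

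The groups share replicate numbers, and whether the numbers pair the libraries cannot be settled with so few libraries a group. Of 13 same-numbered pairs 6 had a correlation of deviations over 0.1 (range -0.516 to 0.372). At their own number 6 of 26 libraries by other group matched best. With the replicate number as a block, 1348 genes were called in the pooled comparison, 388 were shared and 291 differed between hairpins.

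Diet, L-NAME, virus and diet length differ together between HFpEF and control libraries. Genes under a few CPM rest on few reads, and with 4 or 5 libraries a group small changes can be missed.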
